A study of Mus musculus with 8 samples.

Results

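The hypoxia response and glycolysis genes described here are 36 genes chosen by name: 3 subunits of the hypoxia-inducible factors (HIF), 4 genes of oxygen sensing and HIF degradation, 17 glycolytic enzymes and 12 other known HIF targets. All 36 were found by gene symbol among the 18540 genes of the mouse wound skin data, and all 36 passed the low-count filter that kept 15147 genes. Their counts ran from 67 for Car9 in control-2 to 36397 for Pkm in control-5. The study tested ZCZ, a ZnO2/CeO2@ZIF-8 nanocomposite designed to supply oxygen and remove reactive oxygen species, in full-thickness back wounds of mice, and the comparison addresses how far the RNA of oxygen-regulated genes differed in treated wounds.

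The control group (titles con1, con2, con3 and con5) had 4 samples, which the study's wound protocol describes as treated with PBS. The titles of the other 4 samples hold only the word shiyan (Chinese for experiment) and the numbers 1, 2, 4 and 5, and they are called the Z1C2Z group here after the name that the study's heat map gives to these numbers. Z1C2Z is the ZCZ preparation with more CeO2, and the methods state 15 days of ZCZ treatment before the skin was sequenced. Wounds were made in 6-week-old C57BL and in 10-week-old diabetic db/db mice, and the sources used here do not say which of these mice gave the sequenced RNA. Because each mouse carried a pair of wounds and nothing states that the samples came from separate mice, p-values measure the spread between these samples, which may be partly technical. The label gives the tissue as skin, and the keratinocyte genes Krt5 and Krt14 and the fibroblast gene Col1a1 were high in both groups, with means of 1752, 2935 and 15126 CPM (counts relative to the library size, scaled by edgeR's TMM method) in the control group and 1884, 2565 and 10187 CPM in the Z1C2Z group. Between 28856790 and 38974888 reads were counted per sample, and samples of the same group correlated at 0.960 to 0.990 across genes. Values with ± are the mean and SD over the 4 samples of a group, and the log2 fold change (log2 FC, Z1C2Z minus control), its SE and the adjusted p come from edgeR's quasi-likelihood fit.

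Cells sense oxygen through the prolyl hydroxylases encoded by the Egln genes. With oxygen present these enzymes hydroxylate the alpha subunits HIF1A and EPAS1 (HIF2A), the VHL protein binds the hydroxylated form, and the subunit is degraded. Without oxygen the alpha subunit accumulates, pairs with ARNT and binds short DNA motifs near genes for glucose uptake, glycolysis, lactate export, pH control and collagen modification. Wounds are known for low oxygen and active glycolysis, and because HIF activity is set largely at the protein level, the RNA of the alpha subunits and the RNA of their targets are separate readouts.

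The core of the HIF binding motif, searched as ACGTG and GCGTG on both strands (CACGT and CACGC on the reverse strand, where overlapping matches count separately), was looked for in the RefSeq promoter windows of build GRCm38.p6, which hold 250 bases before and 50 bases after each transcription start. Of the 36 members, 33 had a window, and 30 of the 33 (90.9%) held at least 1 match. The share was 63.6% for the 11958 tested genes with a window and 46.7% for all 27025 genes with one. By window, 39 of 47 member windows (83.0%) held a match, against 43.8% of all windows, and 19.6% of all windows held ACGTG and 32.4% held GCGTG. A match was present for 2 of 2 HIF factors, 3 of 4 sensing genes, 15 of 17 glycolytic enzymes and 10 of 10 other targets. A match to these letters is a description of the sequence and does not show that the site is bound.

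The stretches below are the 150 bases that end at the transcription start of the 4 genes whose RNA fell, of Slc16a3, which had the lowest fold change of the members, and of Egln3, whose means did not differ. Each is written 5′ to 3′ along the gene's strand with core matches in capitals.
Hif1a (chr12:73907717-73907866, plus strand): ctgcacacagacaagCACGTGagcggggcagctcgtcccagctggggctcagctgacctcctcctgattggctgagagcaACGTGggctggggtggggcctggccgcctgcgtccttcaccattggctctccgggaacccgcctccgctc
Hk2 (chr6:82774455-82774604, minus strand): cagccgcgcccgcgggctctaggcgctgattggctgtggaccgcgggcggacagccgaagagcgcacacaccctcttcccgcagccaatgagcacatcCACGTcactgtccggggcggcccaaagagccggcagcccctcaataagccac
Gapdh (chr6:125165774-125165923, minus strand): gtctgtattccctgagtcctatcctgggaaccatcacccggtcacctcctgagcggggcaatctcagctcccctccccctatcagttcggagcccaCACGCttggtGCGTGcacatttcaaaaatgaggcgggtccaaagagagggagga
P4ha2 (chr11:54100774-54100923, plus strand): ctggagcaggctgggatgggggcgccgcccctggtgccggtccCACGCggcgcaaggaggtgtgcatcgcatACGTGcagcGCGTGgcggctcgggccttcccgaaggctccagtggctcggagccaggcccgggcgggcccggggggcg
Slc16a3 (chr11:120948917-120949066, plus strand): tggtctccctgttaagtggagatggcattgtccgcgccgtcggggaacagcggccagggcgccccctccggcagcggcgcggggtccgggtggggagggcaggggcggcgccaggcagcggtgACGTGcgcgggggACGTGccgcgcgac
Egln3 (chr12:54203875-54204024, minus strand): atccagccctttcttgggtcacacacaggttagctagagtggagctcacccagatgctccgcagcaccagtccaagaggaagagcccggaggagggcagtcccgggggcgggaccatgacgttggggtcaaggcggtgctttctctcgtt
The Hif1a stretch held 3 matches, 2 of which are the opposite strands of 1 palindrome, and the P4ha2 stretch also held 3. The Slc16a3 and Gapdh stretches held 2 matches each and the Hk2 stretch held 1. The Egln3 stretch held 0, and the 1 match of its whole window began 229 bases before the start. The members shown were chosen for their fold changes, so they cannot show whether the number of core matches goes with fold change.

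Compared with the control group, the RNA of most members was lower in the Z1C2Z group. Hif1a, the oxygen-labile HIF subunit, Hk2, which phosphorylates glucose at the entry to glycolysis, Gapdh, the dehydrogenase of the middle of the pathway, and P4ha2, a collagen prolyl hydroxylase subunit, fell at an edgeR adjusted p under 0.05, by 43.1%, 45.4%, 33.2% and 46.3%. In whole wound skin, fewer cells of a type and less RNA of the gene per cell cannot be told apart. No member rose at this threshold (1 member, Aldoc, was higher at an unadjusted p under 0.05 in edgeR and rose in DESeq2). The 4 genes are 11.1% of the members, where 3.85% of all tested genes were called lower and 4.28% higher. Of the 36 fold changes 34 (94.4%) were under 0 on the log2 scale, where 48.9% of all genes were (32 of 36 with library totals alone, under which Egln3 and Pdk1 turned), and their median was -0.40 against 0.01 for all genes. In 10 members (27.8%) every Z1C2Z sample lay below every control sample, where 8.82% of all genes did so, and no member had the opposite arrangement, which 8.45% of all genes had. At an unadjusted p under 0.05 in edgeR, 22 of the 36 members were lower, where 2302 of all 15147 tested genes were lower and 1946 higher. At an edgeR adjusted p under 0.1, 13 members were lower, where 1383 of all tested genes were. None of the called members had an absolute log2 FC over 1. The members were chosen with earlier results of these data known, so these counts are a description and carry no test of the set.

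**Figure D1:**
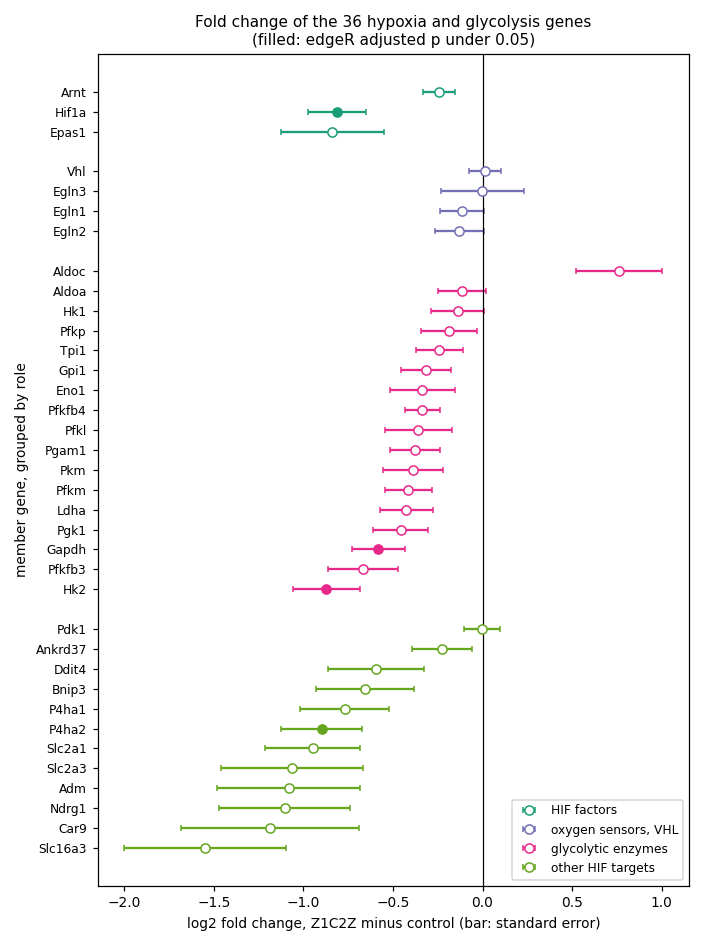
Log2 fold change (Z1C2Z minus control) of each of the 36 members by role, with bars of 1 SE from edgeR (4 samples per group). Filled points mark Hif1a, Hk2, Gapdh and P4ha2, with an adjusted p under 0.05, and the points lie left of 0 for all members but Vhl and Aldoc, with Egln3 and Pdk1 so close to 0 that their sign turned with library totals alone.

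The medians of the roles lay on both sides of that of all members. The 3 HIF factors had a median log2 FC of -0.81, the 12 other targets -0.92, the 17 glycolytic enzymes -0.36 and the 4 oxygen sensing genes -0.06. The marker genes of several cell types also moved between the groups. For the counts that follow, 3.85% of all tested genes fell and 4.28% rose. The mean log2 CPM of 18 hair shaft and inner root sheath genes was 3.71 to 6.07 in the control samples and 6.37 to 8.61 in the Z1C2Z samples, without overlap, and 17 of the 18 rose. The skeletal muscle list lay at 7.29 to 7.85 against 6.75 to 7.26 (5 of 18 fell), the fibroblast list at 11.10 to 11.51 against 10.63 to 11.03 (3 of 10 fell) and the list for smooth muscle and pericytes at 5.91 to 6.41 against 5.67 to 5.85 (3 of 10 fell). All 8 melanocyte genes rose (3.26 to 4.12 against 4.62 to 5.87), and of 7 Schwann cell genes 1 rose (3.28 to 3.85 against 3.88 to 4.22). None of the genes on the endothelial, macrophage or neutrophil lists changed at an adjusted p under 0.05 in edgeR, and the levels of these lists overlapped between the groups. At an unadjusted p under 0.05 in edgeR, 6 of 10, 5 of 10 and 4 of 9 of their genes were lower, where 2302 of all 15147 tested genes were. The part of these cell types in the values of the members was not tested, and hair content and treatment cannot be told apart in this design. With the hair score as a covariate no member was called and 12 of the 36 fold changes remained under 0 (median 0.05). In that fit 637 of 15147 tested genes and 0 members had an unadjusted p under 0.05 in edgeR. With the skeletal muscle score no gene at all, and so no member, was called (smallest edgeR adjusted p 0.452). There 32 of the 36 fold changes were under 0 (median -0.30), and 1615 genes and 2 members had an unadjusted p under 0.05 in edgeR.

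**Figure D2:**
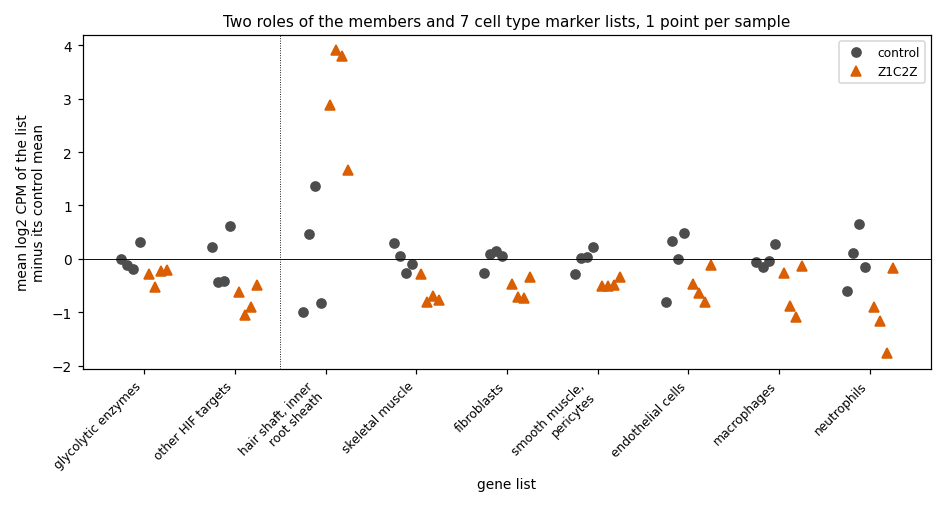
Mean log2 CPM of the glycolytic enzymes, the other HIF targets and 7 cell type marker lists in each sample, minus the mean of the 4 control samples (circles control, triangles Z1C2Z). The hair list lay higher in each Z1C2Z sample than in all control samples, while both member lists and the muscle and fibroblast lists lay lower without overlap, and the endothelial, macrophage and neutrophil lists overlapped. The gap was narrow for both member lists. In mean log2 CPM it lay between control-3 (6.87) and Z1C2Z-5 (6.85) for the glycolytic enzymes. For the other targets it lay between control-2 (5.10) and Z1C2Z-5 (5.04).

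Among the HIF factors, Hif1a gave the clearest separation. Its level was 691, 661, 614 and 704 CPM in control samples 1, 2, 3 and 5, and 453, 299, 302 and 466 CPM in Z1C2Z samples 1, 2, 4 and 5. The control samples lay close together, and within the Z1C2Z group samples 2 and 4 were the low ones. The group mean went from 668 ± 40.1 down to 380.1 ± 91.9 CPM (log2 FC -0.81, SE 0.16, edgeR adjusted p = 0.0303). Epas1, which encodes HIF2A and is known from endothelium, had 63.1, 131, 91.5 and 121 CPM in the control samples in the same order against 71.2, 42.2, 38.1 and 76.3 CPM in the Z1C2Z samples. Control-1 lay below Z1C2Z-1 and Z1C2Z-5, so the groups overlapped, and a log2 FC of -0.84, as large as that of Hif1a, came with an SE of 0.29 (edgeR adjusted p = 0.0970). The endothelial marker list had the same low control sample, control-1, at a mean log2 CPM of 4.83 against 5.62 to 6.10 in the other control samples. The part of endothelial content in the Epas1 values was not tested. Arnt, the partner of both alpha subunits, had 96.5, 102, 99.9 and 97.8 CPM in the control samples and 89.3, 76.5, 76.9 and 92.3 CPM in the Z1C2Z samples. Here too no Z1C2Z sample reached a control sample, while the difference was small, with a log2 FC of -0.24 (SE 0.09, edgeR adjusted p = 0.117). Per kilobase of exon, Hif1a RNA was the most abundant of the 3 in the control group, at 123 ± 7.35 CPM per kb against 20.5 ± 0.467 for Arnt and 18.4 ± 5.58 for Epas1. Arnt and Epas1 did not differ beyond their spread in the control group.

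The genes that sense oxygen and mark the HIF subunits for degradation had nearly equal levels in both groups. Egln1, the main HIF prolyl hydroxylase, had 127, 96.7, 109 and 128.5 CPM in the control samples and 106, 95.6, 126 and 99.8 CPM in the Z1C2Z samples, with full overlap. Egln2 had 28.4, 28.0, 34.0 and 35.2 CPM against 25.1, 28.7, 35.6 and 25.5 CPM. The log2 FCs were -0.11 for Egln1 (SE 0.13, edgeR adjusted p = 0.582) and -0.13 for Egln2 (SE 0.14, edgeR adjusted p = 0.569). Egln3, the hydroxylase whose own gene is a known HIF target, had 199.7, 118, 111 and 165 CPM in the control samples and 147, 105, 197 and 145 CPM in the Z1C2Z samples. The highest values came from control-1 and Z1C2Z-4 and the lowest from Z1C2Z-2, and the group means of 148.4 ± 42.0 and 148.4 ± 37.7 CPM were alike to within the SE of 0.23 on the log2 scale (edgeR adjusted p = 1.00). Vhl, the substrate receptor of the ubiquitin ligase, had 27.7, 24.6, 26.9 and 28.3 CPM against 25.3, 28.3, 25.6 and 29.3 CPM (log2 FC 0.01, SE 0.09, edgeR adjusted p = 0.938). With standard errors of 0.09 to 0.23 on the log2 scale, differences of this size were not detectable with 4 samples per group. The sign for Egln3 and Vhl turned under some alternatives.

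**Figure D3:**
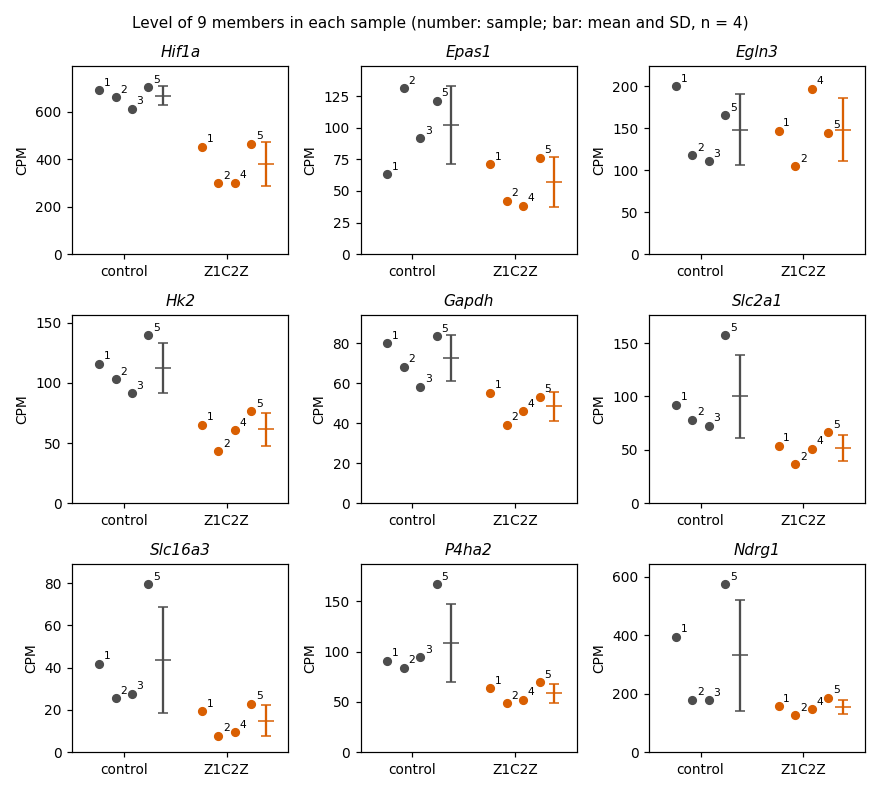
CPM of 9 members in each sample (points, numbered by sample), with the mean and SD of the 4 samples per group at the right of each group, on axes that start at 0. Hif1a, Hk2, Gapdh, Slc2a1, Slc16a3 and P4ha2 did not overlap between the groups, Epas1, Egln3 and Ndrg1 did, and control-5 was the highest sample for Hif1a, Hk2, Gapdh, Slc2a1, Slc16a3, P4ha2 and Ndrg1.

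Of the 17 glycolytic enzymes, Hk2 and Gapdh fell, 16 had a fold change under 0 and 1, Aldoc, a fold change over 0. Hk2, the inducible hexokinase, had 116, 103, 91.2 and 139 CPM in the control samples and 65.3, 43.1, 60.7 and 76.5 CPM in the Z1C2Z samples. The lowest control sample still lay above the highest Z1C2Z sample. The level fell from 112 ± 20.7 to 61.4 ± 13.9 CPM, a log2 FC of -0.87 (SE 0.19, edgeR adjusted p = 0.0336). Hk1, the constitutive hexokinase, had a log2 FC of -0.14 (SE 0.15, edgeR adjusted p = 0.573), with means of 83.7 ± 11.4 and 76.0 ± 13.0 CPM. Gapdh had 79.9, 68.1, 58.3 and 83.4 CPM against 55.3, 39.1, 46.0 and 53.3 CPM, without overlap but with control-3 close to Z1C2Z-1. Its log2 FC was -0.58 (SE 0.15, edgeR adjusted p = 0.0456), near the threshold. At 48.5 ± 7.67 CPM per kb in the control group, Gapdh stood well below its neighbours Tpi1 (167 ± 30.0) and Pgk1 (219 ± 46.2) in the pathway. Gapdh has many processed pseudogenes, and how the counting treated reads shared with them is not given in the sources used here, so its level is uncertain.

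Of the members, 5 act at the phosphofructokinase step of glycolysis or control it. Pfkfb4, which makes the activator fructose 2,6-bisphosphate, had 19.4, 21.6, 21.0 and 23.998 CPM in the control samples and 17.4, 17.0, 15.8 and 17.8 CPM in the Z1C2Z samples, a narrow gap without overlap (log2 FC -0.34, SE 0.10, edgeR adjusted p = 0.0629). Pfkfb3, the family member best known from hypoxia, had 70.9, 79.1, 95.5 and 119.5 CPM against 60.5, 43.5, 53.2 and 72.7 CPM. Here control-1 lay below Z1C2Z-5, and a log2 FC of -0.67 with an SE of 0.20 gave an edgeR adjusted p of 0.0671. Pfkm, the muscle form of phosphofructokinase, had 118, 88.6, 74.3 and 88.7 CPM against 71.2, 66.7, 73.3 and 65.96 CPM. The groups were separated by the gap between control-3 and Z1C2Z-4 alone, and the log2 FC was -0.41 (SE 0.13, edgeR adjusted p = 0.0841). With the skeletal muscle score as a covariate the Pfkm fold change was 0.02, in a fit that called no gene at all. The part of muscle content in the Pfkm values was not tested. The liver form Pfkl (-0.36) and the platelet form Pfkp (-0.19) overlapped between the groups. Of the same enzyme family as Pfkfb3 and Pfkfb4 but not members, Pfkfb2 had 47.8 ± 6.61 against 57.5 ± 4.69 CPM (log2 FC 0.27, edgeR adjusted p = 0.165) and Pfkfb1 4.02 ± 0.331 against 3.56 ± 0.190 CPM (log2 FC -0.18, edgeR adjusted p = 0.461), both with overlap and named after their values were seen.

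Aldoc, the brain-type aldolase, was the one member with a higher mean in the Z1C2Z group apart from Vhl. It was a low-level gene, with 131 to 461 counts per sample, at 4.65, 3.83, 5.01 and 6.11 CPM in the control samples and 6.85, 9.07, 11.6 and 5.79 CPM in the Z1C2Z samples. Z1C2Z-4 and Z1C2Z-2 were highest and Z1C2Z-5 lay below control-5, and the log2 FC of 0.76 (SE 0.24) had an edgeR adjusted p of 0.0784. The abundant Aldoa, at 250.3 ± 40.0 CPM per kb against 1.65 ± 0.318 for Aldoc in the control group, had a log2 FC of -0.11. The other 11 glycolytic members, Hk1, Gpi1, Pfkl, Pfkp, Aldoa, Tpi1, Pgk1, Pgam1, Eno1, Pkm and Ldha, were all under 0 and all overlapped between the groups. Their log2 FCs ran from -0.46 for Pgk1 to -0.11 for Aldoa and their edgeR adjusted p from 0.0951 to 0.611. Of the 11, Pgk1, Ldha, Pgam1, Pkm and Gpi1 had an unadjusted p under 0.05 in edgeR (0.0158, 0.0178, 0.0224, 0.0467 and 0.0470). Per kilobase Ldha, the lactate dehydrogenase subunit that favours lactate production, was the most abundant member in the control group at 331 ± 69.3 CPM per kb, followed by Pkm at 293 ± 70.2 and Aldoa at 250.3 ± 40.0, which did not differ beyond their spread. Ldha, Pkm, Pgk1, Eno1, Tpi1, Pgam1 and Aldoa have processed pseudogenes or close paralogues, so their levels carry the same uncertainty as that of Gapdh.

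Of the 12 other HIF targets, P4ha2 fell and all 12 had a fold change under 0, although that of Pdk1 turned to 0.091 with library totals alone. The lowest fold change of all members was that of a membrane transporter, Slc16a3. Slc2a1, the glucose transporter GLUT1, had 92.4, 78.0, 72.4 and 157 CPM in the control samples and 53.7, 36.3, 51.0 and 66.4 CPM in the Z1C2Z samples. Slc16a3, the lactate exporter MCT4, had 41.9, 25.4, 27.5 and 79.4 CPM against 19.4, 7.85, 9.47 and 22.9 CPM. For both genes control-5 was by far the highest sample, Z1C2Z-2 the lowest, and the groups did not overlap. The log2 FC was -0.95 for Slc2a1 (SE 0.27, edgeR adjusted p = 0.0587) and -1.55 for Slc16a3 (SE 0.45, edgeR adjusted p = 0.0646), so neither passed the threshold. Without control-5 the fold change of Slc16a3 was -1.08, and with 1 sample left out that of Slc2a1 ran from -1.09 to -0.64. The neuronal glucose transporter GLUT3, encoded by Slc2a3, had a low level of 14.7 ± 4.96 CPM against 7.02 ± 4.02 CPM and overlapped.

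The catalytic subunit genes P4ha1 and P4ha2 of collagen prolyl 4-hydroxylase lay lower without overlap. P4ha2 had 90.9, 84.1, 94.3 and 167 CPM in the control samples against 63.6, 48.7, 52.3 and 69.6 CPM in the Z1C2Z samples, a fall from 109 ± 38.8 to 58.5 ± 9.71 CPM. Control-5 stood apart from the other 3 control samples, which lay between 84.1 and 94.3 CPM. The log2 FC was -0.90 (SE 0.23, edgeR adjusted p = 0.0454), and with 1 sample left out it ran from -1.01 to -0.61. P4ha1 had 178, 133, 147 and 279 CPM against 130.1, 86.3, 86.4 and 129.8 CPM, with control-2 just above Z1C2Z-1, and a log2 FC of -0.77 (SE 0.25, edgeR adjusted p = 0.0856) that was -0.49 without control-5. Fibroblasts are known as the main users of these subunits, and the fibroblast marker list was lower in the Z1C2Z group as well, with a median log2 FC of -0.61 over 10 genes. Its part in the P4ha1 and P4ha2 values was not tested.

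Ndrg1 and Adm split the control group. Ndrg1, a differentiation gene induced by low oxygen, had 394, 179, 177 and 574 CPM in the control samples and 156, 127, 147 and 186 CPM in the Z1C2Z samples. Adm, which encodes the vasodilator peptide adrenomedullin, had 28.4, 10.3, 6.67 and 19.2 CPM against 7.42, 7.07, 6.15 and 9.79 CPM. In both genes control-1 and control-5 were high, while control-2 and control-3 lay within or next to the range of the Z1C2Z samples. The log2 FCs of -1.10 for Ndrg1 (SE 0.36) and -1.08 for Adm (SE 0.40) had edgeR adjusted p of 0.0882 and 0.117. Car9, a membrane carbonic anhydrase, and Bnip3, a mitophagy receptor, had the same arrangement of control samples. Car9 had 8.95, 1.86, 2.15 and 6.70 CPM in the control samples against 1.74 to 2.58 CPM in the Z1C2Z samples, and Bnip3 had 235, 111, 109.98 and 228 CPM against 87.8 to 126 CPM. They were named for this arrangement after their values were seen, and neither passed the test (log2 FCs -1.19 and -0.66, edgeR adjusted p = 0.156 and 0.155). Ddit4, an inhibitor of mTORC1, was high in control-5 alone, at 197 CPM against 88.8 to 100.01 CPM in the other control samples (log2 FC -0.59, edgeR adjusted p = 0.186). Without control-5 the log2 FC was -0.24 for Ddit4 and -0.69 for Ndrg1, and without control-1 it was -0.67 for Adm and -0.74 for Car9. Pdk1, the kinase that closes pyruvate dehydrogenase, had equal means of 69.5 ± 7.72 and 69.4 ± 4.24 CPM (edgeR adjusted p = 0.990), and Ankrd37 had 4.50 ± 0.434 and 3.85 ± 0.592 CPM (edgeR adjusted p = 0.410).

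**Figure D4:**
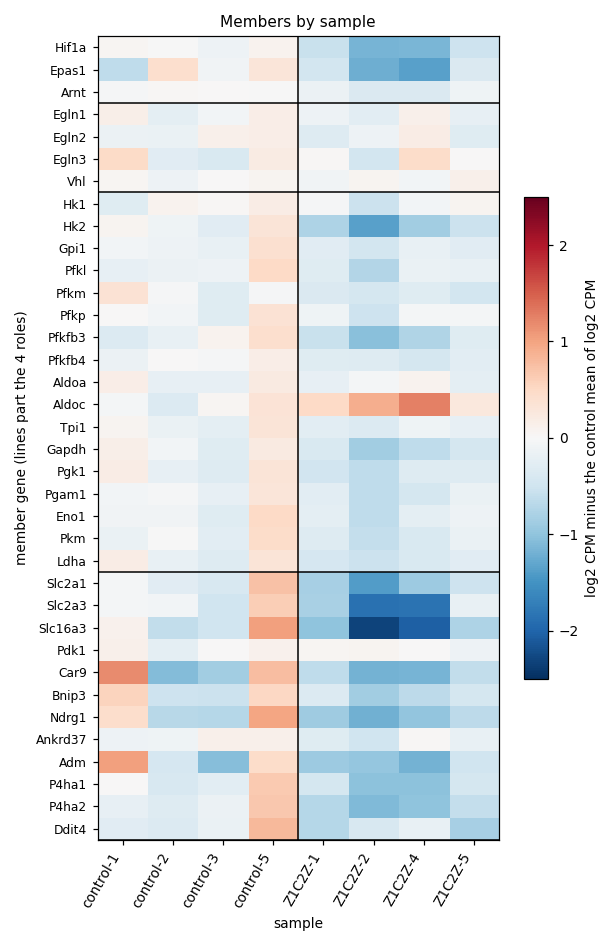
Log2 CPM of the 36 members in each of the 8 samples minus the mean of the 4 control samples, from blue (lower) to red (higher), with lines between the 4 roles and between the groups. The column of control-5 is red for most glycolytic enzymes and other targets, Z1C2Z-2 is the bluest column, and the 4 oxygen sensing genes show no division between the groups.

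The same samples were highest or lowest for most members. Control-5 was the highest of the 8 samples for 24 of the 36 members (66.7%), where it was so for 18.7% of all genes, and Z1C2Z-2 was the lowest for 26 (72.2%), where it was so for 14.6% of all genes. Control-1 and control-5 were the 2 highest samples for 21 members (58.3%) and for 9.30% of all genes. These are also the control samples with the lowest hair scores, 3.71 and 3.87 against 5.18 and 6.07, and Z1C2Z-2 and Z1C2Z-4 had the highest, 8.61 and 8.51. The part of hair content in the order of the samples was not tested. Without control-5, 32 of the 36 fold changes were under 0 (median -0.27). No gene at all had an adjusted p under 0.05 in edgeR without control-5, and the smallest was 0.0584. In that fit 16 members and 3223 of 15279 tested genes had an unadjusted p under 0.05 in edgeR. No member was called either without control-2, Z1C2Z-1, Z1C2Z-2 or Z1C2Z-4, with 22, 19, 15 and 17 members at an unadjusted p under 0.05 in edgeR. Over all genes, 3755 of 15287, 4208 of 15247, 3137 of 15237 and 3100 of 15238 tested genes were at that level in the same fits. Without Z1C2Z-1, Z1C2Z-2 or Z1C2Z-4 no gene at all was called, as without control-5 (smallest edgeR adjusted p 0.0661, 0.0888 and 0.0876). Without control-1, control-3 or Z1C2Z-5, 6, 5 and 8 members were called lower. At an unadjusted p under 0.05 in edgeR these fits had 20, 24 and 20 members. Over all genes they had 4914 of 15280, 3849 of 15271 and 4478 of 15287 tested genes at that level. Of the 8 fits that left out 1 sample, Hif1a and Hk2 were called in 3 and Gapdh and P4ha2 in 2, and all 4 kept a fold change under 0 in each of them. Across the 17 alternatives the edgeR or DESeq2 adjusted p ranged from 0.000142 to 1.00 for Hif1a, 0.000344 to 1.00 for Hk2, 0.00469 to 1.00 for Gapdh and 0.00196 to 1.00 for P4ha2, with the lowest in DESeq2 and the highest with the hair score as a covariate. Scaling by library totals alone gave 385 lower and 972 higher genes in place of 583 and 648, shifted the median of all genes to 0.10, and called Hif1a, Hk2 and P4ha2 lower and Aldoc higher.

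Ratios of related genes within a sample are nearly free of the scaling between libraries, and 12 pairs were compared by an exact two-sided permutation test, in which 4 samples against 4 cannot go below p = 0.0286. In 4 of the 12 pairs the groups did not overlap. The log2 ratio of Hk2 to Hk1 was 0.42 ± 0.31 in the control group and -0.32 ± 0.10 in the Z1C2Z group, and that of Slc16a3 to Slc16a1, which encodes the monocarboxylate transporter MCT1, was -1.90 ± 0.57 and -2.95 ± 0.69. The log2 ratio of Aldoc to Aldoa was -7.02 ± 0.22 against -6.19 ± 0.29, and that of Ldhb, the subunit of the heart-type lactate dehydrogenase, to Ldha was -4.29 ± 0.33 against -3.39 ± 0.47. The gap was narrow for Slc16a3 to Slc16a1, with control-2 at -2.25 and Z1C2Z-1 at -2.30. It was narrow too for Ldhb to Ldha, with control-3 at -3.92 and Z1C2Z-1 at -3.87. Each of the 4 pairs reached p = 0.0286 in the exact permutation test and an adjusted p of 0.0857 over the 12 pairs, so none passed after adjustment. With this smallest possible p, 4 pairs of 12 could not pass, so the adjustment cannot decide about them. The ratio of Epas1 to Hif1a was alike in the groups (difference -0.01, exact permutation p = 1), and that of Egln3 to Egln1 differed by 0.12 with overlap (exact permutation p = 0.457). The ratios of the phosphofructokinase, enolase and phosphoglycerate mutase forms overlapped too, as did those of Slc2a3 and Slc2a4 to Slc2a1.

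**Figure D5:**
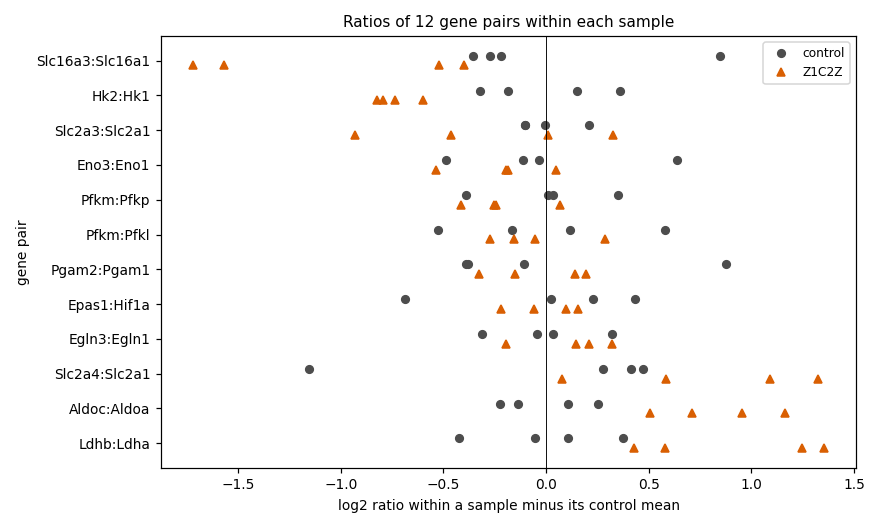
Log2 ratio of 12 gene pairs in each sample minus the mean of the 4 control samples (circles control, triangles Z1C2Z). Slc16a3:Slc16a1 and Hk2:Hk1 lie lower and Aldoc:Aldoa and Ldhb:Ldha higher in all Z1C2Z samples than in all control samples, and the other 8 pairs overlap.

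Other genes of the oxygen response came from a list of 39 tested genes that holds no member. Of these 7 fell and 0 rose, where 3.85% of all tested genes fell and 4.28% rose. At an unadjusted p under 0.05 in edgeR, 3 of the 39 were higher and 14 lower, where 1946 of all 15147 tested genes were higher and 2302 lower. Their median log2 FC was -0.14, and 27 of the 39 were under 0, where 48.9% of all genes were. Among those with the smallest adjusted p were Dusp1, a MAP kinase phosphatase (-1.68, edgeR adjusted p = 0.0299), Loxl2, a collagen crosslinking oxidase (-1.01, edgeR adjusted p = 0.0303), Angptl4, a lipoprotein lipase inhibitor (-1.24, edgeR adjusted p = 0.0369), Bhlhe40, a transcriptional repressor (-0.86, edgeR adjusted p = 0.0371), and Plod2, a collagen lysyl hydroxylase (-1.44, edgeR adjusted p = 0.0399). In all 5 the groups did not overlap. Several of these 5 genes have known inducers besides HIF, and Loxl2 and Plod2 are known from matrix-producing cells. Vegfa, the angiogenic HIF target, had a log2 FC of -1.56 and overlapped (edgeR adjusted p = 0.0844), and was named after its values were seen.

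Of 32 other tested genes of glucose and pyruvate metabolism, 2 fell and 3 rose, where 3.85% of all tested genes fell and 4.28% rose. Their median log2 FC was -0.13. Gpd2, the mitochondrial glycerol phosphate dehydrogenase, fell from 40.6 ± 2.64 to 25.6 ± 4.76 CPM, and Pdk4, a pyruvate dehydrogenase kinase, fell from 40.8 ± 6.401 to 28.1 ± 3.73 CPM (log2 FCs -0.67 and -0.54, edgeR adjusted p = 0.0306 and 0.0496). Fbp1, the fructose bisphosphatase that opposes phosphofructokinase, rose from 11.4 ± 8.49 to 64.8 ± 32.7 CPM, a log2 FC of 2.503 (SE 0.57, edgeR adjusted p = 0.0373). Z1C2Z-2 and Z1C2Z-4, the samples with the highest hair scores, had 100.2 and 82.0 CPM and control-3, the control sample with the highest hair score, had 22.9 CPM against 4.83, 12.8 and 5.10 CPM in control-1, control-2 and control-5. The part of hair content in this rise was not tested. Slc16a7, the monocarboxylate transporter MCT2 (0.98, edgeR adjusted p = 0.0315), and Pdp2, a pyruvate dehydrogenase phosphatase (0.63, edgeR adjusted p = 0.0337), rose as well. Among 10 genes of the pentose phosphate pathway, G6pdx, its entry enzyme, rose from 84.5 ± 9.21 to 119 ± 14.4 CPM (log2 FC 0.50, edgeR adjusted p = 0.0395), none fell (2 were lower at an unadjusted p under 0.05 in edgeR), and the median was 0.21. In the KEGG annotation deposited with the counts, the glycolysis pathway had 54 tested genes, of which 2 fell and 3 rose, and the HIF-1 signaling pathway had 97, of which 11 fell and 2 rose, where 3.85% of all tested genes fell and 4.28% rose. Without the members, 0 of 39 genes of the glycolysis pathway fell and 3 rose in edgeR (5 were lower and 6 higher at an unadjusted p under 0.05). Of 77 genes of the HIF-1 pathway without the members, 8 fell and 2 rose. Over all 15147 tested genes, 2302 were lower and 1946 higher at an unadjusted p under 0.05 in edgeR.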

How the data were processed

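Total RNA of wound skin from 4 control and 4 Z1C2Z samples was sequenced. According to the labels it was depleted of ribosomal RNA, and the cDNA carried dUTP in its second strand. The labels name Trizol and the methods the RNA Easy Fast kit. The authors deposited raw read counts per gene, with Entrez identifiers and KEGG annotation beside the symbols. Aligner, counting program, genome build, annotation and strand setting are not given in the sources used here, so reads shared by near-identical genes are of uncertain origin. The samples were grouped by their titles.

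The counts were fitted with edgeR 4.0.16 (R 4.3.3): filterByExpr (15147 of 18540 genes), TMM scaling, the quasi-likelihood test without covariates and Benjamini-Hochberg adjustment over all tested genes. The threshold for a call was an adjusted p of 0.05. Standard errors were derived from the F statistic. CPM values were scaled by TMM, and log2 CPM used a prior count of 2. Single values were compared by an exact two-sided permutation test over 70 arrangements. Each of the 10 members without overlap had the smallest p that this test can give, 0.0286, which follows from the lack of overlap and is not a second result. Exon lengths were unions of GENCODE M21 basic exons, and promoter windows came from RefSeq. At totals of 28856790 to 38974888 counts per sample, the smallest member count was 67. No 2 libraries agreed within sampling noise (smallest chi-square 21 per degree of freedom), so none was treated as a repeat deposit. This does not show that they came from separate mice, and counting each as 1 replicate is an assumption. The steps were tested on simulated counts.

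The members and lists were chosen with earlier results of these data known. Every HIF factor and sensing gene is given in each sample. Of the other roles, the same holds for members that were called or without overlap, filled up to 6 by unadjusted p. Of other pathway genes, those called were named, at most 6 per list (1 of these is not reported here), and of the pairs those without overlap. The alternatives were DESeq2 1.42.0, RLE factors, library totals alone, no filter, a minimum of 10 counts per sample, a block by sample number, a muscle or hair score as a covariate, keratin and muscle genes left out, each sample left out, and a prior count of 0.5.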

Additional observations from a re-analysis of the deposited data

Results flagged for a closer look

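Within a group of 4 samples, 1 sample stood far from the other 3 on the log2 CPM scale in 4 of the 72 checks (36 members in each group), where chance alone flags about 1 in 20 groups, or 3.6 of 72. The gap to the nearest sample took 0.881 of the range of the control samples for Pfkl, 0.852 for Ddit4 and 0.833 for P4ha2, each time with control-5 as the highest sample. For Pfkp it took 0.869 of the range of the Z1C2Z samples, with Z1C2Z-2 as the lowest.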

How the results depend on the processing

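The 4 called members kept a fold change under 0 in all 17 alternatives except Gapdh with the hair score as a covariate, and they were called again with RLE factors, without the filter, with at least 10 counts in every sample and with keratin and muscle genes left out. DESeq2 called 1513 genes lower and 1243 higher, among them 16 members lower and 1 higher, and 18 other pathway genes lower. Library totals alone called 385 genes lower and 1 member higher. Leaving out 1 sample gave 0 to 868 genes lower and 0 to 886 higher, 0 to 8 members lower and 0 to 1 higher, and 0 to 10 other pathway genes lower and 0 to 6 higher. In these fits Egln3 ran from -0.17 to 0.17, Pdk1 from -0.076 to 0.039 and Vhl from -0.028 to 0.055. The numbers 1, 2 and 5 occur in both groups. Deviations of same-numbered samples correlated at -0.10, -0.06 and 0.32 (other combinations -0.41 to 0.39). With 4 samples per group these correlations cannot decide whether same-numbered samples share a mouse or a batch. With the replicate block 253 genes were lower and 301 higher, Hk2, Slc2a1 and Slc16a3 were the 3 members called, other pathway genes numbered 5 lower and 2 higher, and Pdk1 was 0.00091. The skeletal muscle score as a covariate left 0 genes lower and 0 higher, 0 members lower and 0 other pathway genes in either direction, with a smallest adjusted p of 0.452 and 1615 genes at an unadjusted p under 0.05. The HIF factor median was then -0.53, and the sign turned for Egln3 (0.50), Vhl (-0.090), Pfkm (0.020) and Pdk1 (0.066). The hair score as a covariate left 1 gene lower and 0 higher, 0 members lower and 0 other pathway genes in either direction, with 637 genes and 0 members at an unadjusted p under 0.05. Medians were then -0.28 for HIF factors, 0.041 for glycolytic enzymes and 0.22 for other targets. The sign turned for Egln1 (0.026), Egln3 (0.61), Hk1 (0.015), Pfkl (0.037), Pfkp (0.32), Aldoa (0.041), Tpi1 (0.12), Gapdh (0.0013), Pgk1 (0.094), Pgam1 (0.092), Eno1 (0.26), Pkm (0.12), Ldha (0.14), Slc2a1 (0.060), Slc2a3 (0.45), Slc16a3 (0.27), Pdk1 (0.037), Car9 (1.05), Bnip3 (0.54), Ndrg1 (0.49), Adm (0.82) and P4ha1 (0.16). Egln3 was 0.094 with library totals, 3.7e-05 without the filter, 0.0053 with at least 10 counts and 0.0028 with keratin and muscle genes left out, and Pdk1 was 0.091 with library totals, 0.00034 with at least 10 counts and 0.00037 with keratin and muscle genes left out. The cause of these shifts was not tested. A prior count of 0.5 left the 10 members at the smallest exact p and the 0 pairs past adjustment as they were. Depth did not limit the members, whose smallest count was 67, while 4 samples per group set the standard errors.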
